A study of Mus musculus with 2 samples.

Results

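The collagen genes were taken as all symbols in the deposited gene lists that consist of Col, a number, the letter a and a chain number, without antisense and binding-protein names, which gave 44 genes of 32285. By the structure of their proteins they fell into 9 groups. These were 11 fibrillar chains, 6 chains of basement membrane collagen IV, 3 of the network-forming collagens VIII and X, 6 of beaded filament collagen VI, 1 of anchoring collagen VII, 9 of the fibril-associated collagens (FACIT), 4 of the membrane-spanning collagens, 2 multiplexins and 2 of the collagens XXVI and XXVIII. The genes were examined in single cells from mice with Nf1 optic pathway glioma (Nf1-OPG, genotype Nf1flox/neo; GFAP-Cre). In both groups every cell carries a neomycin cassette in exon 31 of 1 Nf1 copy, and Cre driven by GFAP removes the other copy in neuroglial progenitors. The vancomycin library came from mice given this antibiotic from 6 to 12 weeks of age, and the control library from mice for which the series names PBS over the same weeks. Each library pooled 10 mice aged 12 weeks. Optic nerve is the labelled tissue of both libraries, but the labels' protocol also describes meningeal dura. The vancomycin title gives no tissue, while the control title ends in ON. How much dura each suspension held was not given in the sources used here. Transcripts were counted as unique molecular identifiers (UMIs) from the 5′ end. With 1 library per treatment no difference could be tested against the spread between mice. The values describe these 2 libraries, and intervals in parentheses are exact 95% intervals that cover counting error only.

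After filters the vancomycin library held 15726 cells with a median of 6970 UMIs, and the control library 4108 cells with a median of 4871 UMIs. Collagens supplied 25406 UMIs in the vancomycin library and 7279 in the control library. On the CPM scale, which divides a gene's UMIs by all UMIs of the same cells, this was 178.8 CPM with vancomycin and 289.8 CPM in control. The libraries shared 100 cell barcodes, or 0.603% of the barcodes of the vancomycin library and 2.34% of those of the control library. Cells were given a type where at least 3 of a type's marker genes, none of them a collagen, had a UMI and no other type reached more than 0.5 times as many. The types are called gated cells here, since the names rest on those markers alone. Cells with markers of several types were set apart as mixed, and they held 36.0% of the collagen UMIs with vancomycin and 36.7% in control. The main cells of the nerve were unevenly present. The vancomycin library held 3784 oligodendrocyte-gated, 950 oligodendrocyte precursor-gated and 136 astrocyte-gated cells, against 0, 49 and 47 in the control library. In sums over a whole library, the treatment and the makeup of the suspension cannot be told apart, and all comparisons below are within a type. Different Cell Ranger versions, 7.2.0 for vancomycin and 6.0.1 for control, cannot be told apart from the treatment either. The newer version counts introns by default and the older does not, and the setting used was not given in the sources used here. Genes that span over 100 kb had a median log2 ratio of vancomycin over control of 0.49 in T-gated, 0.38 in astrocyte-gated, 0.18 in microglia-gated and 0.10 in fibroblast-gated cells. For genes of up to 10 kb the medians were 0.21, -0.003, 0.23 and 0.30 in the same order. For genes of 10 to 30 kb they were 0.075 in T-gated, -0.114 in astrocyte-gated and -0.000 in microglia-gated cells. For genes of 30 to 100 kb they were -0.032, -0.080 and -0.106 in these 3 types. The part of intron counting in these medians was not tested. Of 24 collagens measured in fibroblast-gated cells 15 are that long, with a median of -0.23. The median was -0.34 for the 4 that span 30 to 100 kb and -0.66 for the 5 that span 10 to 30 kb. All genes of these 2 spans had medians of -0.085 and 0.066 in fibroblast-gated cells.

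Collagen chains assemble in the endoplasmic reticulum into helical trimers, are secreted, and are then built into fibrils, sheets or beaded filaments. Type I and III fibrils give connective tissue its tensile strength, collagen IV forms the sheet of basement membranes around vessels and glial endfeet, and collagen VI lies between the cell surface and the fibrils. In and around the optic nerve, fibroblasts of the meninges, vessel cells and astrocytes of the glial limiting membrane are known sources of this matrix.

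Upstream sequences are shown for the fibrillar, collagen VI, network, multiplexin and membrane groups and for the collagen IV pair on the X chromosome. In each of these groups the member shown had the highest level among those with an upstream sequence in the reference. The other groups are not shown. Nor is Col4a1, whose 250 upstream bases lie wholly in annotated Col4a2 exons. Col27a1 was added after its values were seen. The sequences are the bases before the RefSeq transcript start on GRCm38.p6, read 5′ to 3′ on the gene's strand, without annotated exon bases for Col1a2 and Col4a5. Capitals mark the CCAAT box (CCAAT or ATTGG) and the GC box (GGGCGG or CCGCCC).
Col1a2 (chr6:4505370-4505492, strand plus): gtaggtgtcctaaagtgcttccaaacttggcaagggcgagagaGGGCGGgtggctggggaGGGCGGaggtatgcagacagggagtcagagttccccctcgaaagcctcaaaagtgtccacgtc
Col4a5 (chrX:141475169-141475384, strand plus): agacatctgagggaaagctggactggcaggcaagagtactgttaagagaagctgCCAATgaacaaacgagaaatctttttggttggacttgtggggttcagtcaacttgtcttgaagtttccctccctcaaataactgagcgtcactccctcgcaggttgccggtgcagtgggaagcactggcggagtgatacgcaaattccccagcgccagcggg
Col4a6 (chrX:141474077-141474326, strand minus): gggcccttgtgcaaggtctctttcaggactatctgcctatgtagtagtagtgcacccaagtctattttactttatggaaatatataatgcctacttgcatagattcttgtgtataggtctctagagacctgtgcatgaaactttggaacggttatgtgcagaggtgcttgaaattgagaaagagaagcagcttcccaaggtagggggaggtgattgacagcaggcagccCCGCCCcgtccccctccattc
Col6a2 (chr10:76623631-76623880, strand minus): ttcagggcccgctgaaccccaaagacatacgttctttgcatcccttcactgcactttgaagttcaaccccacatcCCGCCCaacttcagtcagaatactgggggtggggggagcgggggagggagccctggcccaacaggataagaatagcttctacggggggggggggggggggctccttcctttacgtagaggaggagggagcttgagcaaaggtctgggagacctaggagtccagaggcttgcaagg
Col8a1 (chr16:57754738-57754987, strand minus): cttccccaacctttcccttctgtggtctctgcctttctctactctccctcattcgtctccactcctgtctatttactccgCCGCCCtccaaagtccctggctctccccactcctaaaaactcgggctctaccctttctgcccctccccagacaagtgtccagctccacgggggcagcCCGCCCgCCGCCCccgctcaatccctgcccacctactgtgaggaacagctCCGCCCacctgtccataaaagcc
Col15a1 (chr4:47207762-47208011, strand plus): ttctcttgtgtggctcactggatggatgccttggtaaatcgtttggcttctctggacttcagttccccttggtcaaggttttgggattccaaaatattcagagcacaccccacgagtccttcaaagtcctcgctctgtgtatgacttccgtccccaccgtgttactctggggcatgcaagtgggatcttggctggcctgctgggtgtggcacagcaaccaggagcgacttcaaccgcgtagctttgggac
Col25a1 (chr3:130180595-130180844, strand plus): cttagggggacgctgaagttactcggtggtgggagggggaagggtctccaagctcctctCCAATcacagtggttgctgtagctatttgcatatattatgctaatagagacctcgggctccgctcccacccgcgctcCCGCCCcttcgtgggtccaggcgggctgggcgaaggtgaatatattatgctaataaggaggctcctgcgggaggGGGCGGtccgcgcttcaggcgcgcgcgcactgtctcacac
Col27a1 (chr4:63215162-63215411, strand plus): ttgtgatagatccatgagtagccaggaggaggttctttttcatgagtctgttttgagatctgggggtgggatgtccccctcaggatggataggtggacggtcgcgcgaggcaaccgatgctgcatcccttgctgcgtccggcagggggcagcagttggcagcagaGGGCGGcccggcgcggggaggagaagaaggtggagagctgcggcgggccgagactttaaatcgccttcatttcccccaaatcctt

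Of the 44 genes, 35 had a RefSeq promoter window, with 38 windows in all. The GC box lay in 22 of the 38 collagen windows (57.9%), against 32.7% of 32851 windows of the same length over all genes. The CCAAT box lay in 13 (34.2%, against 33.8%), and the TATA box, TATAAA or its reverse complement, in 5 (13.2%, against 12.4%). A match on either strand was counted and describes the letters only. The collagen IV genes lie in head-to-head pairs as annotated on GRCm38. The starts of Col4a1 and Col4a2 are 21 bases apart on chromosome 8, those of Col4a3 and Col4a4 72 bases apart on chromosome 1, and those of Col4a5 and Col4a6 1309 bases apart on the X chromosome. Col6a1 and Col6a2 lie on the same strand of chromosome 10 with starts 102538 bases apart.

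The collagen level in CPM was highest in fibroblast-gated cells in both libraries, but most collagen UMIs lay in other cells. With vancomycin fibroblast-gated cells held 2286 of 25406 collagen UMIs. Oligodendrocyte-gated cells held 6624 there, oligodendrocyte precursor-gated cells 3856 and mixed cells 9140. In control fibroblast-gated cells held 1765 of 7279, the most of any gated type, and mixed cells held 2670. The summed level of the 44 genes was 4189 CPM (4019 to 4364) in 111 fibroblast-gated cells of the vancomycin library and 5661 CPM (5400 to 5931) in 57 of the control library. Astrocyte-gated cells followed with 1460 CPM (1365 to 1559) with vancomycin and 2359 CPM (2196 to 2532) in control. Oligodendrocyte precursor-gated cells had 567.9 CPM (550.1 to 586.1) with vancomycin and 658.2 CPM (587.3 to 735.3) in control. Among types of at least 40 cells in both libraries microglia-gated cells came next, with 101.1 CPM (94.4 to 108.1) with vancomycin and 180.0 CPM (169.8 to 190.6) in control. With each gate taken as a whole, the order of these 4 types was the same in both libraries, and the intervals of neighbours in that order did not overlap. The astrocyte-gated sum includes 14 cells with vancomycin and 23 in control that carry Col25a1 and are described below. Col25a1 and Col23a1 in them supplied 379 and 101 of 881 collagen UMIs with vancomycin, and 303 and 255 of 770 in control. In control the place of the astrocyte gate depends on these cells. The other 24 astrocyte-gated cells had no collagen above 75.03 CPM there, and their sum lay below that of precursor-gated cells. With vancomycin the sum of the other 122 cells lay nearer to that of precursor-gated cells than the sum of the whole gate did. In the vancomycin library 99 endothelial-gated cells had 599.2 CPM (526.7 to 679.0) and the oligodendrocyte-gated cells 161.9 CPM (158.0 to 165.8); the control library held 1 and 0 such cells. The 35 mural-gated cells of the vancomycin library had 1112 CPM (910 to 1344), and the control library held 2. Types of the blood lineage were lower. T-gated cells had 23.6 CPM with vancomycin and 15.6 CPM in control, and plasma-gated cells had 5.68 CPM with vancomycin and 1.72 CPM in control. The 42 erythroid-gated cells of the vancomycin library had 0 collagen UMIs of 330737, for which the interval reaches 11.2 CPM.

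**Figure D1:**
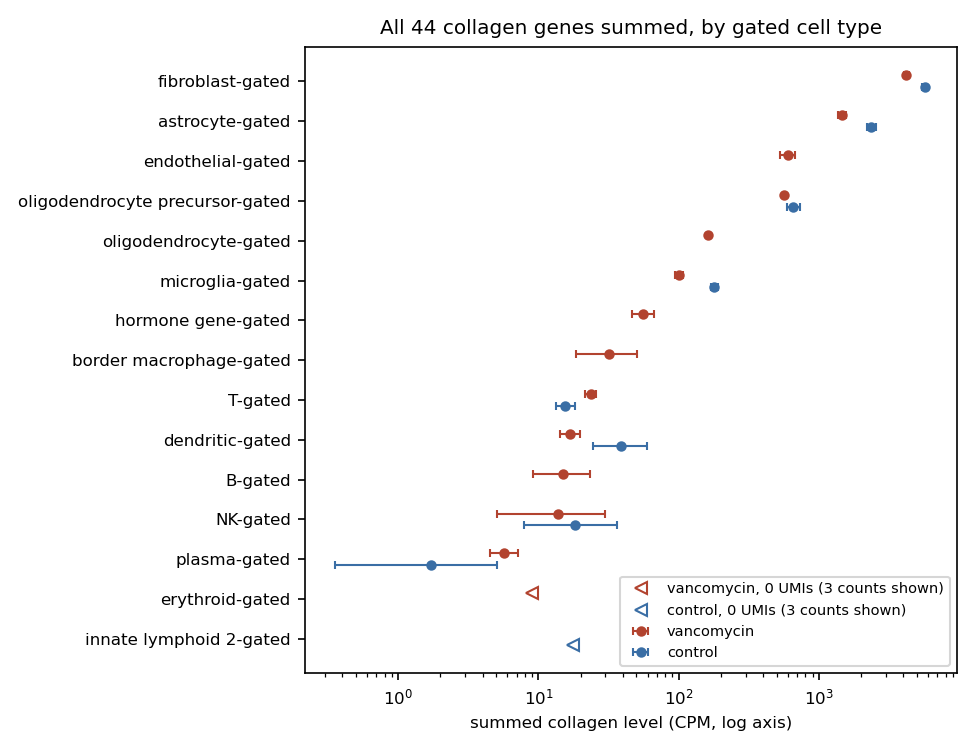
Summed level of the 44 collagen genes (CPM, log axis) by gated cell type, vancomycin library above control library. Points are sums over the cells of a type with exact 95% counting intervals, and triangles stand for 3 counts where no UMI was seen; types with at least 40 cells in a library are drawn. Fibroblast-gated cells are highest in both libraries, at 4189 CPM (vancomycin) and 5661 CPM (control).

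In the vancomycin library, over 13 types of at least 50 cells, 37 of the 44 genes reached 20 UMIs. Of these, 22 had their highest level in fibroblast-gated cells (background 8.35% of 18301 genes), 15 of them with an interval clear of the next type. Another 6 were highest in oligodendrocyte precursor-gated cells (15.1% of genes) and 3 in astrocyte-gated cells (14%). The others were 2 in endothelial-gated cells (8.76%), 2 in oligodendrocyte-gated cells (10%), 1 in microglia-gated cells (4.99%) and 1 in border macrophage-gated cells (3.94%). In the control library 22 genes reached 20 UMIs over the 6 types of at least 50 cells. Of these, 20 were highest in fibroblast-gated cells (31.1% of 12850 genes) and 2 in microglia-gated cells (16.8%). Types of at least 40 cells add astrocyte-gated and oligodendrocyte precursor-gated cells, and 28 genes then reached 20 UMIs in control. Of those, 21 were highest in fibroblast-gated cells (11.7% of 13844 genes), 4 in precursor-gated cells (25.6%), 2 in astrocyte-gated cells (19.7%) and 1 in microglia-gated cells (9.44%). The 7 genes under 20 UMIs in the vancomycin library were Col24a1 with 19 UMIs, Col10a1 with 15, Col6a6 with 12, Col28a1 with 11, Col19a1 with 9, Col6a5 with 8 and Col6a4 with 1. A further 8 genes passed that minimum but had under 20 UMIs in the type of their highest level. In fibroblast-gated cells, their highest type, Col4a3 and Col4a4 had 12 UMIs each, Col9a2 13 and Col18a1 15. The others were Col7a1 with 24 UMIs over all gated cells, Col17a1 with 34, Col20a1 with 146 and Col22a1 with 29.

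**Figure D2:**
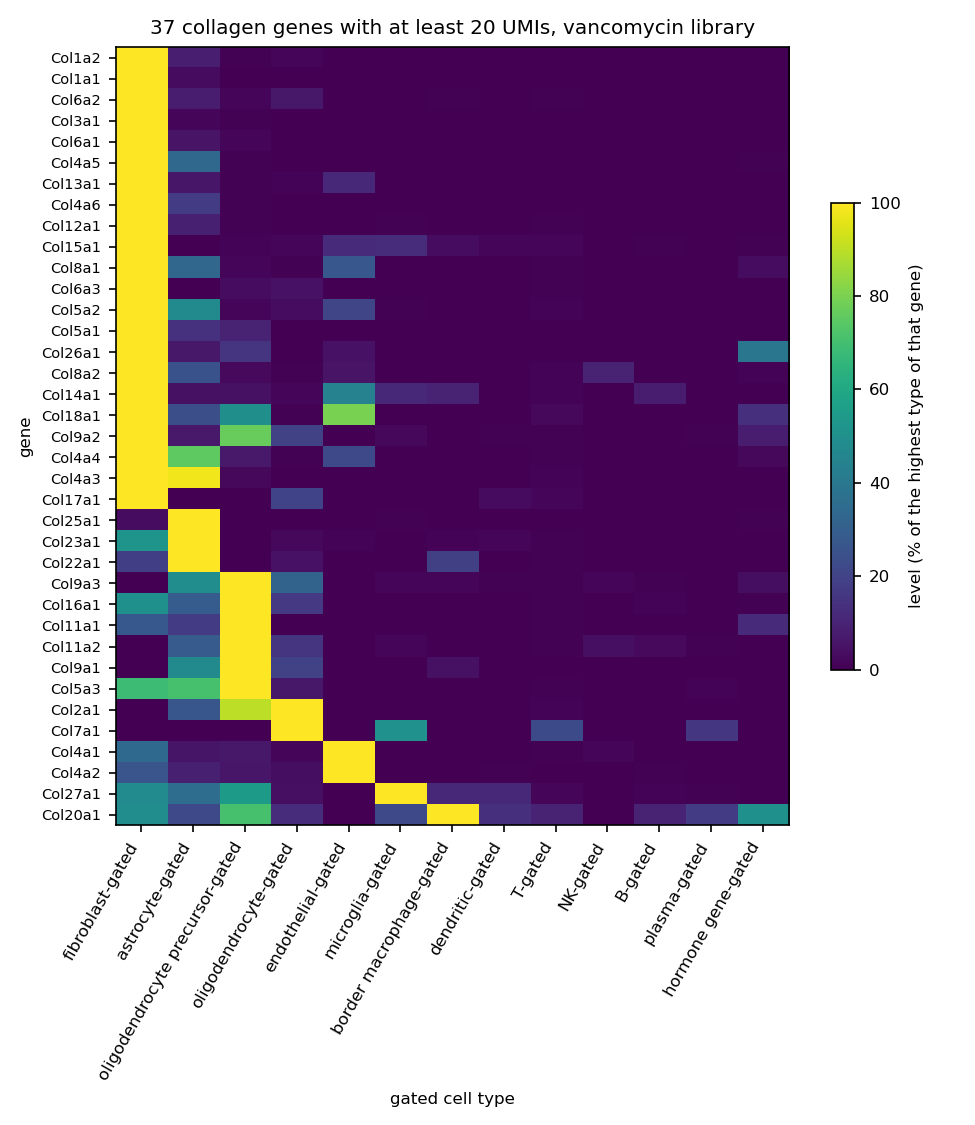
Level of each of the 37 collagen genes with at least 20 UMIs in the vancomycin library (rows), as a percentage of its level in its highest gated type, across 13 gated cell types (columns). The 22 genes in the upper block peak in fibroblast-gated cells, and the 6 genes from Col9a3 to Col5a3 peak in oligodendrocyte precursor-gated cells.

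In fibroblast-gated cells most collagen chains stood lower in the vancomycin library. There 24 collagens had at least 20 UMIs over both libraries. None of them was at least 2-fold higher with vancomycin (0 of 24, background 9.26% of 6619 genes), and 2, Col5a2 and Col18a1, were at least 2-fold lower (background 6.33%). The median log2 ratio of vancomycin over control was -0.37 for the 24 collagens and 0.09 for all 6619 genes, and 18 of the 24 lay below 0. The interval of the ratio lay wholly below 1 for 9 collagens and wholly above 1 for 1. The ratio of the summed level was 0.740 (0.695 to 0.788). The median number of different collagens with a UMI per cell was 8 with vancomycin and 10 in control, at median depths of 4606 UMIs with vancomycin and 4938 UMIs in control. Decorin (Dcn), a proteoglycan among the markers of the gate, had 11590 CPM with vancomycin and 10740 CPM in control. The 9 markers of the gate together had 15840 CPM with vancomycin and 15880 CPM in control.

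The fibrillar chains made up 47.3% (45.3 to 49.4) of the collagen UMIs of fibroblast-gated cells with vancomycin. They summed to 1983 CPM with vancomycin and 2835 CPM in control, a ratio of 0.699 (0.639 to 0.765). Col1a1 and Col1a2 encode the chains of type I collagen, the most abundant fibril of connective tissue. Col1a1 had 696 CPM with vancomycin and 1151 CPM in control, a ratio of 0.605 (0.522 to 0.701). Col1a2, whose upstream bases above carry a pair of GC boxes, had 724 CPM with vancomycin and 882 CPM in control, a ratio of 0.821 (0.702 to 0.961). The type III chain Col3a1 had 383 CPM with vancomycin and 507 CPM in control, a ratio of 0.756 (0.612 to 0.935). Type V collagen sets the diameter of type I fibrils, and its chains Col5a1 and Col5a2 were measured here. Its chain Col5a3, with 7 UMIs with vancomycin and 6 in control, was under the minimum of 20 UMIs. Col5a2 had 58.6 CPM with vancomycin and 141 CPM in control, a ratio of 0.416 (0.255 to 0.670). Col5a1 had 58.6 CPM with vancomycin and 89.8 CPM in control, a ratio of 0.653 (0.381 to 1.13). Col27a1 had 31.2 CPM with vancomycin and 32.1 CPM in control. For 4 of the 6 measured fibrillar genes, namely Col1a1, Col1a2, Col3a1 and Col5a2, the interval of the ratio lay wholly below 1.

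Beaded filament collagen VI was the next group in amount, at 764 CPM with vancomycin and 1135 CPM in control, a ratio of 0.673 (0.583 to 0.778). Its common form joins a chain each of Col6a1, Col6a2 and Col6a3. Col6a1 had 280 CPM with vancomycin and 443 CPM in control, a ratio of 0.634 (0.50 to 0.803). Col6a2 had 411 CPM with vancomycin and 606 CPM in control, a ratio of 0.677 (0.556 to 0.826). Col6a3 had 73.3 CPM with vancomycin and 86.6 CPM in control, and the interval of its ratio ran from 0.507 to 1.43. The alternative chains Col6a4, Col6a5 and Col6a6 were among the genes under 20 UMIs.

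Collagen IV summed to 539 CPM with vancomycin and 593 CPM in control, a ratio of 0.908 (0.753 to 1.10), and its genes gave ratios on both sides of 1. Col4a1, a chain of the ubiquitous basement membrane network, had 103 CPM with vancomycin and 183 CPM in control, a ratio of 0.561 (0.381 to 0.826). Its partner Col4a2 had 45.8 CPM with vancomycin and 44.9 CPM in control. The X-linked pair, which is known from the basement membranes of the kidney and of smooth muscle, contributed more UMIs. Col4a5 had 213 CPM with vancomycin and 250 CPM in control. Col4a6 had 134 CPM with vancomycin and 80.2 CPM in control. Its ratio of 1.67 (1.05 to 2.74) was the 1 ratio among the 24 measured collagens with an interval wholly above 1. Col4a3 and Col4a4, whose chains are best known from the glomerulus, had 12 UMIs each with vancomycin.

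The multiplexins are basement membrane proteoglycans whose end fragments inhibit vessel growth, and they summed to 147 CPM with vancomycin and 273 CPM in control. Col15a1 had 119 CPM with vancomycin and 186 CPM in control, a ratio of 0.640 (0.443 to 0.929). Col18a1 had 27.5 CPM with vancomycin and 86.6 CPM in control, a ratio of 0.317 (0.157 to 0.618). Membrane collagens span the plasma membrane, and 2 were measured. Col13a1, found at cell adhesion sites, had 191 CPM with vancomycin and 241 CPM in control. Col23a1 had 121 CPM with vancomycin and 89.8 CPM in control. FACIT chains decorate fibrils. Col12a1 had 130 CPM with vancomycin and 173 CPM in control, and Col16a1 had 45.8 CPM with vancomycin and 60.9 CPM in control. Col14a1 had 38.5 CPM (21 UMIs) with vancomycin and 19.2 CPM (6 UMIs) in control, just under 2-fold. Col9a2 had 23.8 CPM with vancomycin and 22.5 CPM in control. Type VIII chains form hexagonal networks beneath endothelia. Col8a1 had 80.6 CPM with vancomycin and 83.4 CPM in control, and Col8a2 had 45.8 CPM with vancomycin and 73.8 CPM in control. Col26a1 had 51.3 CPM with vancomycin and 35.3 CPM in control. Outside the multiplexins, all ratios of these genes had intervals that included 1.

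**Figure D3:**
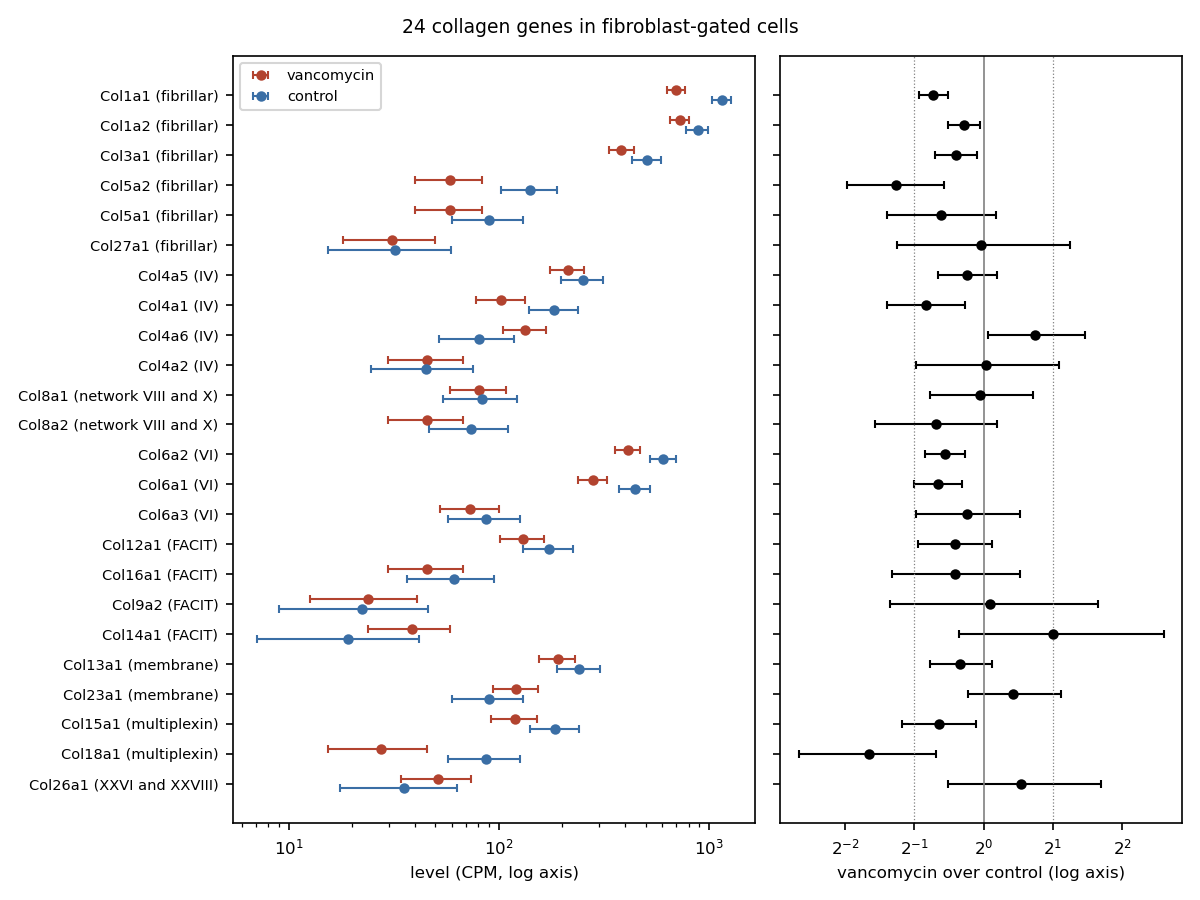
The 24 collagen genes with at least 20 UMIs in fibroblast-gated cells: levels (CPM, log axis, left; vancomycin above control) and the ratio of vancomycin over control (log axis, right), with exact 95% counting intervals. Dotted lines mark 2-fold in either direction; Col5a2 and Col18a1 lie beyond the lower line, and 18 of the 24 points lie left of equal levels.

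The fibroblast-gated cells of the libraries also differed in other genes, whose part in the collagen ratios was not tested. Mural cell markers summed to 1156 CPM with vancomycin, where 6 of 10 were detected and Rgs5, Abcc9, Higd1b and Myh11 were at 0. In control they summed to 320.7 CPM, with 7 of 10 detected and Rgs5, Higd1b and Myh11 at 0. Endothelial markers summed to 80.6 CPM with vancomycin and 70.6 CPM in control. The list of dura-type fibroblast genes summed to 7026 CPM with vancomycin and 4891 CPM in control. In it Mgp, an inhibitor of calcification, had 5574 CPM with vancomycin and 3611 CPM in control, Foxp1 a ratio of 1.24 and Fxyd5 a ratio of 1.13. The leptomeninges-type list summed to 411 CPM with vancomycin and 619 CPM in control. In it the transporter Slc47a1 had 187 CPM with vancomycin and 379 CPM in control, Crabp2 a ratio of 0.535, Aldh1a2 1.35 and Lama1 2.10. Cells with more dura-list than leptomeninges-list UMIs made up 95.5% (89.8 to 98.5) of fibroblast-gated cells with vancomycin and 86.0% (74.2 to 93.7) in control. Among them alone the summed collagen level was 4260 CPM (4085 to 4441) with vancomycin and 5713 CPM (5442 to 5995) in control. Mgp makes up most of the dura-type sum, so this split rests largely on that gene. Mgp and Slc47a1 of the leptomeninges-type list are both among the top genes of cluster 25 below. The split therefore cannot separate fibroblasts of the dura from those of the leptomeninges.

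Clustering of both libraries without collagen genes placed the fibroblast-gated cells mainly in a pair of clusters. Gene values here are over all cells of a cluster, not over its fibroblast-gated cells alone. Those were 90 of 223 cells of cluster 21 with vancomycin and 45 of 71 in control. In cluster 25 they were 19 of 145 and 12 of 64. Mixed cells held 3127 of the 3966 collagen UMIs of cluster 25 with vancomycin and 1510 of 2129 in control. The whole clusters differed in collagen makeup. Cluster 21 was led by Bpifa1, Dcn, Mfap4, Vtn and Lum, and cluster 25 by Ccn3, Ecrg4, Mgp, Igfbp6 and Slc47a1. In cluster 21 Col13a1 had 120 CPM with vancomycin and 233 CPM in control, and Col15a1 had 81.8 CPM with vancomycin and 212 CPM in control. Col4a5 had 158 CPM with vancomycin and 252 CPM in control there, and Col4a6 123 CPM with vancomycin and 89.2 CPM in control. Cluster 25 nearly lacked all 4 genes. Col15a1 and Col4a6 had 0 UMIs in it in either library, Col13a1 had 1 UMI with vancomycin and 0 in control, and Col4a5 had 8 UMIs with vancomycin and 0 in control. Cluster 25 had more collagen VI and VIII instead. Col6a2 had 884 CPM with vancomycin and 1529 CPM in control in cluster 25, against 120 CPM with vancomycin and 354 CPM in control in cluster 21. Col6a1 had 523 CPM with vancomycin and 857 CPM in control in cluster 25, against 121 CPM in cluster 21 with vancomycin and 346 CPM in control. Col8a2 had 141 CPM with vancomycin and 262 CPM in control in cluster 25, against 14.0 CPM in cluster 21 with vancomycin and 26.2 CPM in control. Col14a1 also stood higher in cluster 25, with 70.6 CPM with vancomycin and 77.4 CPM in control, against 5.16 CPM with vancomycin and 5.25 CPM in control in cluster 21. The contrast between the clusters had the same direction in both libraries for each of these 8 genes. The type I chain Col1a2 was present in both, with 683 CPM with vancomycin and 934 CPM in control in cluster 25, against 441 CPM with vancomycin and 892 CPM in control in cluster 21.

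Summed collagen was lower with vancomycin in both clusters. Over all cells of cluster 21 it was 2652 CPM with vancomycin and 5357 CPM in control, and over cluster 25 it was 3500 CPM with vancomycin and 5682 CPM in control. Cluster 21 held 33 mural-gated cells with vancomycin and 2 in control, and without them its sums were 2755 CPM with vancomycin and 5413 CPM in control. Its mixed cells differed most, with 2237 CPM in 73 cells with vancomycin and 6926 CPM in 14 cells in control. Among cells that passed the fibroblast gate, the sums in cluster 21 were 4244 CPM (4052 to 4444) in 90 cells with vancomycin and 5446 CPM (5160 to 5743) in 45 cells in control. In cluster 25 they were 4134 CPM (3765 to 4529) in 19 cells with vancomycin and 6527 CPM (5907 to 7195) in 12 cells in control. The intervals of the libraries overlapped in neither cluster. With whole clusters as types in place of gates, the summed ratio was 0.550. Of 29 measured collagens, 9 were then at least 2-fold lower with vancomycin, against 4.9% of all genes, and 1 higher, against 11.6%.

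Genes that fold and process collagen were set beside the chains in the same cells. Of 23 genes for folding and modification 19 were measured, and none of them passed 2-fold (0 higher, 0 lower). Their median log2 ratio was -0.09, and they summed to 3286 CPM with vancomycin and 3627 CPM in control. Serpinh1, the collagen chaperone Hsp47, had 808 CPM with vancomycin and 1129 CPM in control, a ratio of 0.716 (0.621 to 0.826). The prolyl isomerase Ppib had 669 CPM with vancomycin and 500 CPM in control, a ratio of 1.34 (1.10 to 1.62), the highest of the list. P3h3, another prolyl hydroxylase, followed with a ratio of 1.29. The lowest ratios were those of the collagen prolyl hydroxylase chain P4ha1 at 0.571 and the lysyl hydroxylase Plod2 at 0.593. Of 14 genes for procollagen processing and crosslinking 7 were measured, with 0 higher and 1 lower. The lower one was Bmp1, the proteinase that removes the C-terminal propeptide, with 14.7 CPM (8 UMIs) with vancomycin and 51.3 CPM (16 UMIs) in control. Lox, which crosslinks fibrils, had 136 CPM with vancomycin and 228 CPM in control, a ratio of 0.596 (0.424 to 0.837). Sparc, a collagen-binding protein, had 1393 CPM with vancomycin and 1107 CPM in control, a ratio of 1.26 (1.11 to 1.43). Pcolce, which enhances Bmp1, had 777 CPM with vancomycin and 834 CPM in control, and the Lox relative Loxl1 had a ratio of 1.18.

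Of 14 genes for degradation and its inhibitors 8 were measured, with 0 at least 2-fold higher, 0 lower and a median log2 ratio of 0.08. The metalloproteinase inhibitor Timp3 had 1589 CPM with vancomycin and 1889 CPM in control, and Timp2 had 597 CPM with vancomycin and 702 CPM in control, the lowest ratios of that list. The highest were Timp1, at 58.6 CPM with vancomycin and 32.1 CPM in control, and the protease Fap, at 42.2 CPM with vancomycin and 32.1 CPM in control. Of 11 collagen receptors 4 were measured, none past 2-fold (0 higher, 0 lower), and their median log2 ratio was -0.33. The integrin chain Itgb1 had 247 CPM with vancomycin and 295 CPM in control, and the endocytic receptor Mrc2 141 CPM with vancomycin and 186 CPM in control. Ddr2, a receptor tyrosine kinase for fibrillar collagen, had a ratio of 0.733 and Ddr1 a ratio of 0.857. Outside fibroblast-gated cells, a pair of receptors was chosen after the values were seen. Ddr1 had 302 CPM in oligodendrocyte-gated cells of the vancomycin library. Lair1, an inhibitory collagen receptor of leukocytes, had 382 CPM with vancomycin and 457 CPM in control in microglia-gated cells.

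Of 12 basement membrane partners of collagen IV 10 were measured in fibroblast-gated cells, and genes passed 2-fold in both directions, with 2 higher, 1 lower and a median log2 ratio of -0.36. The laminin chain Lamc3 had 64.1 CPM (35 UMIs) with vancomycin and 25.7 CPM (8 UMIs) in control, a ratio of 2.50 (1.14 to 6.24). The laminin chain Lama1 had 60.5 CPM (33 UMIs) with vancomycin and 28.9 CPM (9 UMIs) in control, a ratio of 2.10 (0.981 to 4.98). Lama4, a chain of vascular laminins, had 33.0 CPM with vancomycin and 77.0 CPM in control, a ratio of 0.429 (0.219 to 0.824). Among the more abundant partners the order was mixed as well. Lama2 had 442 CPM with vancomycin and 285 CPM in control, whereas nidogen Nid1, which links laminin to collagen IV, had 218 CPM with vancomycin and 337 CPM in control. Lamb1 had 119 CPM with vancomycin and 234 CPM in control.

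Vessel cells had a narrow collagen repertoire. In endothelial-gated cells of the vancomycin library 79.7% (74.1 to 84.5) of collagen UMIs came from collagen IV. Col4a1 had 299.6 CPM (249.0 to 357.5) and Col4a2 173 CPM (135 to 218). Col1a1, Col1a2 and Col3a1 had 0 UMIs of 410518 there, for which the interval reaches 8.99 CPM each. In 35 mural-gated cells of the same library Col4a1 had 503 CPM (371 to 667), Col4a2 136 CPM (72.6 to 233) and Col1a2 12 UMIs. The single endothelial-gated cell of the control library had 24 Col4a1 UMIs and 13 Col4a2 UMIs.

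Chains that assemble into 1 trimer were compared as UMI ratios, in which depth cancels, as does any capture bias of a gene that is alike in all types. For type I collagen, fibroblast-gated cells had 0.962 Col1a1 UMIs per Col1a2 UMI (0.833 to 1.11) with vancomycin and 1.31 (1.11 to 1.53) in control. In oligodendrocyte-gated cells of the vancomycin library the ratio was 0.113 (0.083 to 0.150), from 53 and 470 UMIs. The oligodendrocyte-gated cells thus had mainly the Col1a2 transcript of the pair. For collagen VI, Col6a1 per Col6a2 was 0.683 (0.552 to 0.843) with vancomycin and 0.730 (0.582 to 0.914) in control in fibroblast-gated cells. In oligodendrocyte-gated cells it was 0.0253 (0.0167 to 0.0367), from 28 and 1108 UMIs. Col6a3 per Col6a2 was closer between these types of the vancomycin library, at 0.132 (0.110 to 0.157) in oligodendrocyte-gated and 0.179 (0.124 to 0.251) in fibroblast-gated cells. For type V, Col5a1 and Col5a2 had 32 UMIs each in fibroblast-gated cells, 6 and 80 in oligodendrocyte-gated cells and 40 and 5 in precursor-gated cells of the vancomycin library.

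For the type XI chains, Col11a1 per Col11a2 was 1.16 (1.01 to 1.33) with vancomycin and 0.597 (0.378 to 0.928) in control in precursor-gated cells. It was 0.0229 (0.0098 to 0.0455) in oligodendrocyte-gated cells of the vancomycin library, from 8 and 350 UMIs. For the head-to-head pair Col4a1 and Col4a2, Col4a1 had the more UMIs in all types drawn but oligodendrocyte-gated cells. In the vancomycin library Col4a1 per Col4a2 was 1.73 (1.28 to 2.35) in endothelial-gated, 3.69 (1.97 to 7.43) in mural-gated and 1.89 (1.40 to 2.56) in precursor-gated cells, and 0.838 (0.698 to 1.005) in oligodendrocyte-gated cells. T-gated cells had 32 Col4a1 UMIs and 2 Col4a2 UMIs in that library. In fibroblast-gated cells the ratio was 2.24 (1.38 to 3.75) with vancomycin and 4.07 (2.24 to 7.91) in control.

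**Figure D4:**
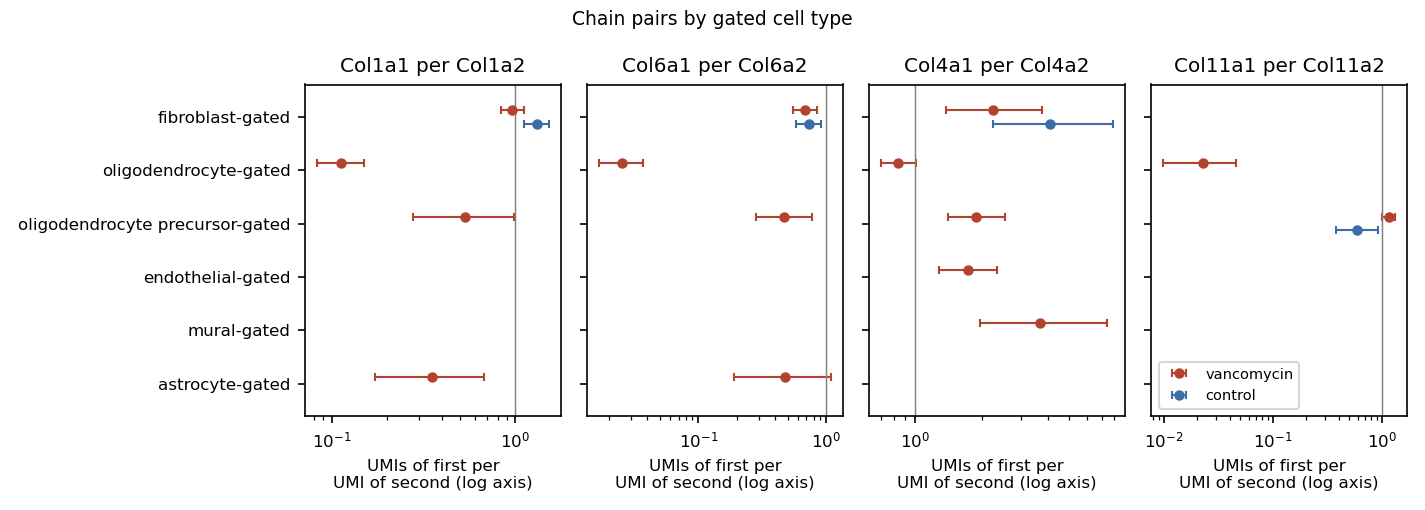
UMIs of the first chain per UMI of the second (log axis) for 4 chain pairs by gated cell type, vancomycin above control, with exact 95% counting intervals. Types with at least 20 UMIs of the pair are drawn, without the single endothelial-gated cell of the control library. Oligodendrocyte-gated cells lie lowest in each panel, at 0.113, 0.0253, 0.838 and 0.0229.

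Oligodendrocyte-gated cells, present in the vancomycin library alone, had FACIT chains as 44.2% (43.0 to 45.4) of their collagen UMIs. Col9a3, a chain of the cartilage FACIT collagen IX, had 41.1 CPM (39.1 to 43.1). Col6a2 followed with 27.1 CPM (25.5 to 28.7), Col16a1 with 15.2 CPM and Col1a2 with 11.5 CPM (10.5 to 12.6). Col2a1, the cartilage fibril chain, had its highest level here, at 6.21 CPM (5.47 to 7.02), beside 5.60 CPM in precursor-gated cells. Several chains differed with Klk6, which encodes a secreted protease of a mature oligodendrocyte subset. Col6a2 had 31.4 CPM (29.5 to 33.3) in the 2819 cells with a Klk6 UMI and 6.02 CPM (4.34 to 8.14) in the 965 cells without one. Col1a2 had 13.5 CPM in cells with Klk6 and 1.58 CPM in cells without, and Col16a1 had 16.9 CPM with Klk6 and 6.45 CPM without. Col2a1 had 7.39 CPM with Klk6 and 0.43 CPM without, and Col23a1 had 5.66 CPM with Klk6 and 0.573 CPM without. Col9a3 was closer between these cells, at 42.2 CPM (40.1 to 44.5) with Klk6 and 35.4 CPM (31.1 to 40.1) without. Cells with a Klk6 UMI were deeper, with a median of 10924 UMIs against 7157 in those without.

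Clusters separated the oligodendrocyte chains further. Cluster 7, led by Mgst3, Uchl1, S100b and Hopx with Klk6 also among its top 10 genes, had Col6a2 at 45.5 CPM, Col1a2 at 19.6 CPM, Col11a2 at 17.95 CPM and Col2a1 at 14.2 CPM. Cluster 14 was led by the interferon-induced genes Iigp1 and Tgtp2 together with Serpina3n and Klk6. It had Col6a2 at 43.6 CPM, Col1a2 at 34.1 CPM and Col23a1 at 23.1 CPM, with Col11a2 at 3.14 CPM and Col2a1 at 2.14 CPM. Cluster 0, led by Ptgds and Opalin, had Col6a2 at 11.2 CPM and Col1a2 at 1.33 CPM. A fibroblast marker moved with part of this pattern, and its part was not tested. Dcn had 15.5 CPM in cells with a Klk6 UMI and 1.86 CPM in cells without, and the 9 fibroblast markers, of which Dpt alone was at 0, summed to 19.2 CPM over all oligodendrocyte-gated cells. In cluster 7 Dcn had a UMI in 12 of 829 cells, Col1a1 in 1, Col6a2 in 98 and Col1a2 in 144. In cluster 14 Dcn had a UMI in 15 of 472 cells, Col1a1 in 10, Col6a2 in 47 and Col1a2 in 78. For scale, Col6a2 had a UMI in 0.488% and Col1a2 in 0.515% of the T-gated cells of that library, at a median depth of 4066 UMIs against 14360 in cluster 7.

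Oligodendrocyte precursor-gated cells were the highest type for most chains of collagens IX and XI and for Col16a1, a FACIT chain. Of 18 measured collagens 2, Col9a1 and Col6a2, were at least 2-fold higher with vancomycin (background 10.4% of 12919 genes), and 3, Col11a2, Col20a1 and Col26a1, at least 2-fold lower (background 7.04%). Col9a3 had 129 CPM with vancomycin and 118 CPM in control, a ratio of 1.09 (0.833 to 1.46). Col9a1, another chain of collagen IX, had 41.4 CPM with vancomycin and 12.6 CPM (6 UMIs) in control, a ratio of 3.28 (1.49 to 9.01). Type XI chains are the minor fibrillar partner of type II in cartilage. Col11a1 had 66.4 CPM with vancomycin and 71.5 CPM in control. Col11a2 had 57.4 CPM with vancomycin and 120 CPM in control, a ratio of 0.479 (0.362 to 0.644). Col16a1 had 91.6 CPM with vancomycin and 164 CPM in control, a ratio of 0.559 (0.441 to 0.716). Col5a3 was highest in these cells of the vancomycin library too, at 18.7 CPM, with 18.9 CPM (9 UMIs) in control. Col6a2 had 53 UMIs with vancomycin, 23 of them in 1 cell, and 1 UMI in control. Fibroblast markers stood higher with vancomycin in these cells too, at 35.1 CPM (8 of 9 detected, Dpt at 0), against 8.41 CPM in control (3 of 9 detected, Lum, Dpt, Slc6a13, Igf2, Ogn and Clec3b at 0), and their part was not tested. Without the cell richest in the gene in each library Col9a1 kept a ratio of 3.80 (1.61 to 11.8). The other calls were lost. Col11a2 then had a ratio of 0.503 (0.376 to 0.685), Col20a1 one of 0.579 (0.207 to 2.25), and Col26a1 one of 1.74 (0.458 to 14.8), on the other side of 1. Col6a2 then had 30 UMIs with vancomycin and 0 in control.

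The astrocyte gate held a set of cells that had some astrocyte genes in most cells and others in few. Col25a1, a membrane-spanning collagen known from neurons, had 628 CPM with vancomycin and 928 CPM in control in astrocyte-gated cells. Col23a1, of the same structural group, had 234 CPM with vancomycin and 791 CPM in control. All 379 Col25a1 UMIs of the vancomycin library lay in 14 of 136 astrocyte-gated cells, and all 303 of the control library in 23 of 47. In T-gated cells Col25a1 had a UMI in 0.190% of cells with vancomycin and 0.0554% in control, at median depths of 4066 UMIs with vancomycin and 5124 UMIs in control. Of the 14 cells with Col25a1 and vancomycin, 0 had a UMI of the astrocyte water channel Aqp4 and 0 of Agt, against 85 and 96 of the other 122 cells. Of the 23 such cells in control, 6 had Aqp4 and 1 had Agt, against 18 and 22 of the other 24 cells. Gjb6 was also rare, in 1 cell with vancomycin and 0 in control, as was Fgfr3, in 1 and 4. Other astrocyte genes were in most of these cells. Slc1a3 and Atp1b2 each had a UMI in 13 cells with vancomycin and 22 in control, Gja1 in 12 and 22, and Slc4a4 in 11 and 16. In CPM these 4 genes stood lower than in the cells without Col25a1 in both libraries. The cells with Col25a1 shared other genes. Col23a1 had a UMI in 13 of 14 cells with vancomycin and 23 of 23 in control, the sodium channel Scn7a in 11 with vancomycin and 21 in control, and Mest in 12 with vancomycin and 23 in control. Dcn had 0 UMIs in all of them. Their median depth was 10329 UMIs with vancomycin and 10827 in control, against 3375 with vancomycin and 3029 in control for the cells without Col25a1. Among these cells, which that gene defines, Col25a1 stood at 2745 CPM with vancomycin and 1300 CPM in control, a direction opposite to that over the whole gate. These cells are left unnamed here. They made up 10.3% (5.74 to 16.7) of the astrocyte gate with vancomycin and 48.9% (34.1 to 63.9) in control.

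Over the astrocyte gate as a whole 12 collagens were measured. Of these, 1 was at least 2-fold higher with vancomycin (background 11.5% of 7810 genes), namely Col1a2, with 61.3 CPM (37 UMIs) with vancomycin and 9.19 CPM (3 UMIs) in control. At least 2-fold lower were 3 (background 8.44%), Col23a1 with a ratio of 0.296, Col27a1 and Col12a1. Col27a1 had 23.2 CPM with vancomycin and 73.5 CPM in control, and Col12a1 had 11.6 CPM with vancomycin and 82.7 CPM in control. These ratios differed within the cells that carry Col25a1. Among those cells alone Col23a1 had 732 CPM with vancomycin and 1094 CPM in control, a ratio of 0.669 (0.526 to 0.845), and was no longer 2-fold lower. Col27a1 had 86.9 CPM with vancomycin and 98.7 CPM in control among them, a ratio of 0.881 (0.399 to 1.84). Col12a1 stayed past 2-fold there, with 2 UMIs with vancomycin and 27 in control, 11 of these in 1 cell. Of the 37 Col1a2 UMIs with vancomycin 35 lay in cells without Col25a1. In the cells without Col25a1, Col23a1 stood on the other side of 1. It had 85.9 CPM (40 UMIs) with vancomycin and 32.15 CPM (3 UMIs) in control there, a ratio of 2.67 (0.851 to 13.5). Over the whole gate Col4a5 had 71.2 CPM with vancomycin and 64.3 CPM in control. Fibroblast markers in these cells summed to 563 CPM with vancomycin and 221 CPM in control, with 4 of 9 detected and Dcn, Lum, Dpt, Slc6a13 and Igf2 at 0 in both libraries.

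Microglia-gated cells had 1 abundant collagen, the fibrillar chain Col27a1, which is known mainly from cartilage. It supplied 549 of 858 collagen UMIs with vancomycin and 928 of 1169 in control. Its level was 64.7 CPM (59.4 to 70.3) with vancomycin and 143 CPM (134 to 152) in control, a ratio of 0.453 (0.407 to 0.504). Among types of at least 40 cells this was the highest Col27a1 level in either library. The next type was precursor-gated cells with vancomycin (35.2 CPM) and astrocyte-gated cells in control (73.5 CPM), and T-gated cells had 0.787 CPM with vancomycin and 0.484 CPM in control. Of 7 measured collagens 1, Col25a1, was at least 2-fold higher with vancomycin (background 11.8% of 11733 genes), with 37 UMIs with vancomycin and 10 in control. Its direction turned round with cells thinned to 1000 UMIs, at a log2 ratio of -0.64, and with the type of most markers, at -0.75. At least 2-fold lower were 3 (background 6.25%), Col27a1, Col23a1 with 7 UMIs with vancomycin and 20 in control, and Col11a2 with 8 UMIs with vancomycin and 13 in control. In control 1 cell held 11 of the 20 Col23a1 UMIs. Without the cell richest in Col23a1 in each library, 5 UMIs with vancomycin and 9 in control were left, a ratio of 0.425 (0.112 to 1.41) under the minimum of 20 UMIs. Col15a1, a multiplexin, had 15.3 CPM with vancomycin and 17.6 CPM in control.

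Different clusters held most microglia-gated cells of the libraries. Cluster 12 had 579 cells with vancomycin and 16 in control, and cluster 11 had 13 cells with vancomycin and 637 in control. Col27a1 stood at 48.1 CPM (42.7 to 54.0) in cluster 12 with vancomycin and at 156 CPM (146 to 167) in cluster 11 in control. Cluster 19, led by the homeostatic microglia genes P2ry12 and Tmem119, was shared by the libraries. In it Col27a1 had 150 CPM (131 to 170) in 274 cells with vancomycin and 262 CPM (201 to 335) in 38 cells in control. In cluster 10, led by Lyz2, Cxcl2 and Mrc1, it had 11.0 CPM with vancomycin and 25.2 CPM in control. Only 123 of the 242 gated cells of cluster 10 (50.8%) were microglia-gated, and 70 of its cells with vancomycin were border macrophage-gated. Its values are therefore not those of microglia alone. Col27a1 was lower with vancomycin in both of these shared clusters. Its level differed more between clusters 19 and 10 than between the libraries, a contrast that sets microglia beside a cluster of mixed makeup. In cluster 8, led by Cxcl13 and Apoe, it had 4 UMIs in each library, and in cluster 16, which went the other way in CPM, it had 28.2 CPM (4 UMIs) with vancomycin and 5.72 CPM (3 UMIs) in control. Dendritic-gated cells had Col27a1 at 7.43 CPM with vancomycin and 33.8 CPM (19 UMIs) in control. Of 3 collagens measured in them 0 were at least 2-fold higher (background 14.9%) and 1, Col27a1, at least 2-fold lower (background 11.2%).

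**Figure D5:**
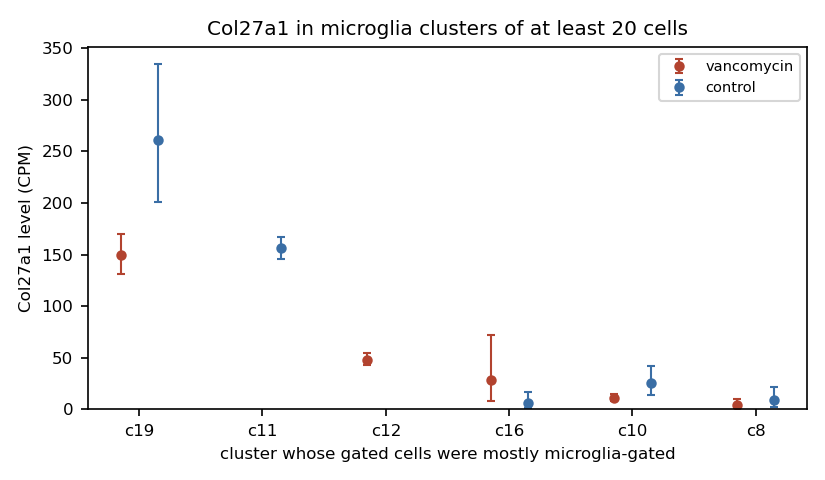
Col27a1 level (CPM) in clusters whose gated cells were mostly microglia-gated (50.8% in cluster 10), vancomycin left of control, with exact 95% counting intervals. Libraries with under 20 cells in a cluster are not drawn. Cluster 19 has 150 CPM (vancomycin) and 262 CPM (control), and clusters 11 and 12 belong almost wholly to 1 library each.

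In lymphoid cells collagen counts were sparse. T-gated cells had 449 collagen UMIs over 3690 cells with vancomycin and 161 over 1805 cells in control, a ratio of 1.51 (1.26 to 1.82). However, 98 of the 161 lay in 1 cell of the control library, which fell in cluster 25 with fibroblast-gated cells. With vancomycin 105 of the 449 lay in 6 T-gated cells of cluster 21 and 80 in 5 T-gated cells of cluster 25. Without the cell richest in collagen in each library the ratio was 3.50. That removal takes out the 1 such cell of the control library but leaves most of those with vancomycin, so it is uneven. Of 11 measured collagens 3, Col15a1, Col4a1 and Col23a1, were at least 2-fold higher with vancomycin (background 16.8% of 13327 genes) and 1, Col12a1, at least 2-fold lower (background 4.34%). The call of Col12a1 rests on 1 cell, which held 18 of its 20 control UMIs. Without the cell richest in Col12a1 in each library there were 9 UMIs with vancomycin and 2 in control, a ratio of 2.43 (0.504 to 23.1). With the type of most markers in place of the gate, 16 of 22 measured collagens were at least 2-fold higher with vancomycin. NK-gated cells had 6 collagen UMIs with vancomycin and 8 in control, and plasma-gated cells 78 with vancomycin and 3 in control, so that no gene reached the minimum there.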

How the data were processed

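Both libraries were deposited as UMI counts per gene and cell barcode in matrix files that the authors made with Cell Ranger 7.2.0 (vancomycin) and 6.0.1 (control), per the file headers; the build was mm10, and Partek is named too, per the submitters' processing notes. Whether introns were counted was not given in the sources used here, and no step that removes free RNA is recorded there. Barcodes were kept from 500 UMIs and 200 genes upwards where no more than 20% of UMIs were mitochondrial. Markers of 24 types gated the cells; mixed and ungated cells were left out of type sums, and no doublet caller was used. UMIs were summed per type and library and scaled to CPM without a pseudocount, and ratios carry exact conditional Poisson intervals. With 1 library per group no p-value was computed, and a gene was counted as higher or lower at a 2-fold ratio when it had at least 20 UMIs over both libraries in a type of at least 50 cells in each. Types of at least 40 cells, which admits astrocyte-gated and oligodendrocyte precursor-gated cells, were added after the cell numbers were seen. The 95% intervals and the floor of 3 counts cover counting error only. Clusters came from Leiden clustering (leidenalg 0.10.2) of 2000 variable genes and 30 principal components, with collagens left out. edgeR 4.0.16 and DESeq2 1.42.0 supplied alternative scaling factors only, and the procedure was checked on simulated data. Gene coordinates are from GENCODE M21 and promoter windows from RefSeq, both on GRCm38. Every collagen is accounted for; values are given for those with at least 20 UMIs in their highest type and counts for the rest. From each other list the text names the 2 genes highest in fibroblast-gated cells in either library and the 2 highest and 2 lowest ratios, with 1 gene not reported here. The members and lists were chosen with earlier results of these data known.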

Additional observations from a re-analysis of the deposited data

How the results depend on the processing

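Across the alternatives the summed ratio of fibroblast-gated cells stayed below 1 and lowest, at 0.550, with whole clusters as types, where the vancomycin library's level was 3038 CPM; with cells thinned to 1000 UMIs the control level was 6019 CPM. The ratio of microglia-gated cells was 0.492 with clusters, 0.652 with cells weighted equally and 0.507 with each cell given to the type with most markers. The ratio of T-gated cells was 2.02 with clusters, 1.97 with thinned cells, 2.08 with equal weights, 3.31 with most markers and 3.50 without the cell richest in collagen. The rules of most markers, 40 cells and the richest cell were chosen after seeing the data. In fibroblast-gated cells the number of collagens at least 2-fold higher, 0 as reported, was 1 with gates of 2 or of 4 markers, with clusters and with no cell filter, and 3 with most markers; the number lower, 2 as reported, was 9 with clusters and 1 with most markers. In microglia-gated cells the number higher, 1 as reported, was 2 with clusters or equal weights, 0 with thinning or a pseudocount of 10 CPM and 4 with no minimum of UMIs; the number lower, 3 as reported, was 0, 1, 5, 1 and 5 with thinning, equal weights, most markers, the pseudocount and no minimum. In T-gated cells the number higher, 3 as reported, was 5 with equal weights, 16 of 22 with most markers, 6 with no minimum and 0 with the pseudocount, and no collagen reached the minimum after thinning. Without the cell richest in the called gene in each library, 15 of the 20 calls over the compared types stayed past 2-fold in the same direction. Among these, Col23a1 and Col11a2 in microglia-gated cells then fell under the minimum of 20 UMIs. Col23a1 had 5 UMIs with vancomycin and 9 in control, and Col11a2 had 7 and 12. Collagens highest in fibroblast-gated cells numbered 14 (vancomycin) and 6 (control) after thinning, and 11 (control) with a minimum of 50 UMIs, where fewer genes were tested. Of the 5 pathway lists the 2 genes higher became 1 with the pseudocount, and the 2 lower became 7 with clusters, 1 with thinning and 5 with no minimum. Col25a1 in microglia-gated cells turned round, with a log2 ratio of -0.64 after thinning and -0.75 with most markers. Apart from fewer genes passing the minimum after thinning, the cause was not tested. TMM and DESeq2 scaling left every ratio among the 36 results run under each inside its counting interval. With DESeq2 factors 19 of the 24 collagens in fibroblast-gated cells had a log2 ratio below 0, against 18 as reported. No paired analysis was possible because each treatment had 1 library. Depth limits collagens under 20 UMIs in a type, and the interval of a ratio says nothing of the spread between mice.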
